A study of Mus musculus with 6 samples.

Results

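The mRNAs of 10 genes of the translation machinery were selected by gene identifier from mTAIL-seq libraries of sorted mouse naive CD4 T cells: Eef1a1, Eef2, Eef1b2, Eef1g, Tpt1, Npm1, Rack1, Naca, Fau and Pabpc1. In mTAIL-seq a hairpin adaptor is joined to RNA 3′ ends, so that a transcript end is read together with its poly(A) tail. Of the 10 genes, 9 had at least 1 tag with a tail, out of 6469 gene identifiers with such tags. A tag is a group of reads that stands for a single RNA end, and it counted as tailed at 5 nt or more. The members held 628 of 84157 tailed, gene-linked tags, or 0.746%.

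The cells were sorted as TCRb+ CD4+ CD25- CD62L-high CD44-low. The 3 WT libraries came from littermate controls of genotype Btg1 f/f Btg2 f/f, and the 3 DKO libraries from Btg1 f/f Btg2 f/f mice that also carried CD4-Cre, a Cre driven by the Cd4 promoter that acts from the thymus onward. All mice thus carried floxed alleles, and WT mice lacked Cre. The design names 3 replicates of each genotype but the cells are described as coming from 2 pairs of mice. Some libraries may therefore share an animal, and the p-values reflect variation between libraries that is possibly technical. Gene symbols other than those of the 10 members were not assigned, and the T cell markers and Btg1 and Btg2 themselves were not analysed here.

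A poly(A) tail is bound by the poly(A)-binding protein, which protects the mRNA and aids its translation. The CCR4-NOT complex shortens tails, BTG1 and BTG2 bind that complex, and tails that have become short can be marked with added uridines. The members belong to, or are usually grouped with, the mRNAs that begin with a C and a run of pyrimidines (terminal oligopyrimidine, TOP, mRNAs). These mRNAs encode ribosomal proteins and translation factors, and their translation follows mTOR activity, which is low in resting T cells and rises on activation.

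The sequence that gives the group its name was looked for in RefSeq promoters (GRCm38.p6), which hold 7 of the 10 members. In the 50 bases on either side of the annotated start, the longest unbroken run of C or T was taken on the gene's strand. It is shown in capitals for the 4 members with the clearest start or the most tags.
Rack1 (chr11:48800350-48800373, plus strand): gccgCTCTTTCTTTTTCTCCacag
Fau (chr19:6057940-6057963, plus strand): cccaCTTCTTCCTCTTTCTTgact
Eef2 (chr10:81176637-81176660, plus strand): gtcagcggTCTCTTCCgccgcagc
Eef1b2 (chr1:63176854-63176877, plus strand): gtccgagcgCTTTCgttcaactcc
Rack1 and Fau both have a run of 16 bases that starts with C and spans the annotated start, and 2.82% of 32851 promoters hold a run at least as long. The longest runs were 10 bases in Eef1a1, 8 in Eef2, 7 in Naca, 6 in Tpt1 and 5 in Eef1b2, and the median over all promoters was 7. Those of Eef2, Tpt1 and Eef1b2 lie 14, 40 and 32 bases after the annotated start. The run of Eef1a1 also starts with C and spans the annotated start, and 18.1% of promoters hold a run at least as long. In these windows a run of 16 bases was thus seen in 2 of 7 members. The longest run in a window need not stand at the first base of the mRNA. The windows thus do not show which members carry the TOP sequence. The windows depend on the annotated start.

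The tails themselves are shown for single tags, because the libraries report the bases at the very end. The deposited strings below run from the tail into the added base, with the tail in lower case and the added base in capitals (T stands for U).
Eef1b2, DKO replicate 1, 33 nt, 28 reads: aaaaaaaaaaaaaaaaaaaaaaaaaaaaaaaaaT
Eef1b2, DKO replicate 1, 32 nt, 10 reads: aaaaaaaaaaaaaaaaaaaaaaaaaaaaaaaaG
Npm1, DKO replicate 2, 33 nt, 1 read: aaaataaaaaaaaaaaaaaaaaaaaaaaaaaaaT
Eef2, WT replicate 1, 42 nt, 1 read: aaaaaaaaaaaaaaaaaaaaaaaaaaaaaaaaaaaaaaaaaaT
Eef2, DKO replicate 2, 49 nt, 2 reads: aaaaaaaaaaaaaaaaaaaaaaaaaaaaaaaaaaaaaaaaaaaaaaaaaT
Rack1, WT replicate 3, 53 nt, 5 reads: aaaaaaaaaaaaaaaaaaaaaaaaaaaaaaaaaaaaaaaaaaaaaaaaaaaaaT
Each of these tails ends in a single added base after at least 28 adenosines, and the Npm1 tail also has a T near its start. Only strings as long as the called tail were chosen. Other member tags with added bases had strings that did not match the called length, such as a single adenosine before the T for a Rack1 tail of 52 nt (DKO replicate 2). Some carried more than 1 added base, such as TT on an Eef2 tail of 52 nt in DKO replicate 2.

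Depth was low and uneven. The libraries held 3943 to 24024 tailed, gene-linked tags, and the members 134, 125 and 44 of these in WT and 156, 147 and 22 in DKO (replicates 1 to 3). The libraries numbered 3 stood apart in both genotypes, with fewer tags and with 32.3% and 35.3% of mapped tags under 5 nt, against 7.95% to 9.94% in the other 4. Eef2, Rack1, Eef1b2 and Eef1g together had 553 of the 628 tags. At the planned minimum of 10 tailed tags in every library, 0 of 10 members entered the tests of tail length, and at a minimum of 5 only Eef2 and Rack1 did.

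Eef2 (ENSMUSG00000034994.9, chr10:81176631-81182509) encodes elongation factor 2, the GTPase that moves the ribosome along the mRNA, and was the member with the most tags. Its tags numbered 68, 53 and 7 (WT) and 57, 38 and 6 (DKO). Their geometric mean tail length was 66.2, 82.9 and 40.6 nt for WT replicates 1 to 3, and 69.4, 66.7 and 68.7 nt for DKO, with standard errors over tags of 3.56, 4.65 and 4.05 nt and of 3.59, 4.74 and 8.63 nt. WT replicate 2 was the highest and WT replicate 3 the lowest library, the DKO libraries lay between them, and the genotypes overlapped.

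The DKO libraries of Eef2 differed little among themselves, at 68.2 nt ± 1.39 (SD, n = 3), beside 63.2 nt ± 21.3 (SD, n = 3) in WT. In the test over the 76 identifiers at the minimum of 5, the log2 change (DKO over WT) was 0.17 (SE 0.25, limma adjusted p = 0.83), where 0% of identifiers were called. Within the libraries numbered 1 and 2 it was -0.12 (SE 0.14, limma adjusted p = 0.88, 122 identifiers, 0% called). Without WT replicate 3 alone, which has 7 Eef2 tags, it was -0.12, so the direction rested on that library.

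Eef2 tails were seldom short. Only 3 of 229 tails were under 30 nt, which is 1.31% (95% exact interval 0.271 to 3.78%). They comprised 1 tag in WT replicate 1, 1 in DKO replicate 1 and 1 in DKO replicate 2. In WT replicate 2, 0 of 53 tails were under 30 nt, which allows a share of up to 5.66%, and 21 of the 53 were at least 90 nt (39.6%). The mean tail of Eef2 exceeded that of 91.8% of the other identifiers with at least 10 tags in that library, and that of 48.0%, 60.1% and 36.9% in WT replicate 1, DKO replicate 1 and DKO replicate 2. A share under 30 nt below that of Eef2 was held by 22.4%, 37.2% and 48.6% of these identifiers in WT replicate 1, DKO replicate 1 and DKO replicate 2. In WT replicate 2 no share can lie below that of Eef2, which is 0, and identifiers with an equal share were not counted.

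**Figure D1:**
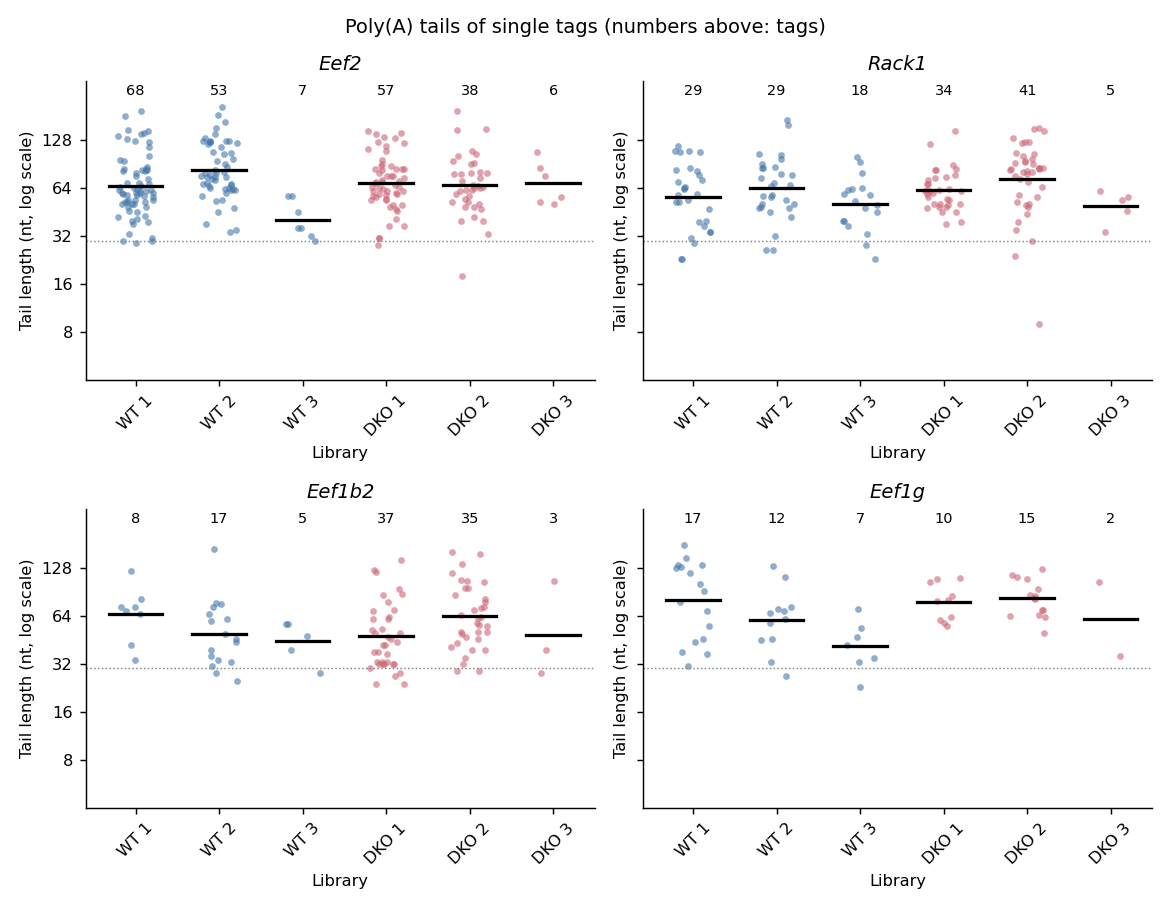
Tail length (nt, log axis) of every tailed tag of Eef2, Rack1, Eef1b2 and Eef1g in each library, with WT in blue and DKO in red; the black bar is the geometric mean, the dotted line is 30 nt and tag numbers stand at the top. Eef2 tails are almost all above 30 nt, and the means of the genotypes overlap for each of the 4 genes.

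Eef1a1 (ENSMUSG00000037742.14, chr9:78478453-78481724) encodes the factor that brings aminoacyl-tRNA to the ribosome. It had 25 tailed tags, of which 20 were also linked to a second identifier, ENSMUSG00000076138.1, so its tags cannot be assigned to Eef1a1 alone. The tails measured 38 and 42 nt in WT replicate 1, 24, 65, 106 and 168 nt in WT replicate 2, and 36 and 45 nt in WT replicate 3. DKO replicate 1 had 8 tails between 21 and 95 nt, DKO replicate 2 had 6 between 52 and 126 nt, and DKO replicate 3 had 40, 47 and 58 nt. The library means ran from 39.9 to 72.6 nt. The tags spread widely in WT replicate 2 and in DKO replicates 1 and 2, and lay close together in the other 3 libraries.

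Eef1b2 (ENSMUSG00000025967.16, chr1:63176831-63180486) and Eef1g (ENSMUSG00000071644.10, chr19:8967041-8978180) encode the beta and gamma subunits of the exchange factor that recharges elongation factor 1 alpha with GTP. Eef1b2 had the shortest tails of the 4 well-covered members. Its mean was 65.8, 49.2 and 44.3 nt in WT (8, 17 and 5 tags) beside 47.7, 63.8 and 48.7 nt in DKO (37, 35 and 3 tags). The libraries of each genotype interleaved, and the group means of 53.1 nt ± 11.3 (SD, n = 3) and 53.4 nt ± 8.97 (SD, n = 3) differed by 0.341 nt. Of 105 Eef1b2 tails, 10 were under 30 nt (9.52%, 95% exact interval 4.66 to 16.8%).

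Eef1g tails had a mean of 79.9, 60.3 and 41.2 nt in WT (17, 12 and 7 tags) and 77.8, 82.3 and 61.2 nt in DKO (10, 15 and 2 tags). The WT libraries ran from the lowest to the second-highest value, and all 3 DKO libraries lay above WT replicate 2. In the libraries numbered 1 and 2 the log2 change was 0.21 (SE 0.15, limma adjusted p = 0.77, 0% of 122 identifiers called). Under 30 nt there were 2 of 36 WT tails and 0 of 27 DKO tails.

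Over all 6 libraries the order of mean tail length was Eef1g at 67.1 nt ± 15.9 (SD, n = 6), Eef2 at 65.7 nt ± 13.8, Rack1 at 59.2 nt ± 8.93 and Eef1b2 at 53.2 nt ± 9.11. Neighbours in this order differed by less than the spread of their difference within libraries, at 1.39 nt ± 14.6 (SD) for Eef1g and Eef2, 6.47 nt ± 12.3 for Eef2 and Rack1, and 6.01 nt ± 9.16 for Rack1 and Eef1b2. The ends of the order stood further apart: Eef1g exceeded Eef1b2 in 5 of 6 libraries, by 13.9 nt ± 10.8 (SD, n = 6). These differences were described and not tested.

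Rack1 (ENSMUSG00000020372.15, chr11:48800360-48806241) encodes a scaffold protein of the small ribosomal subunit. Its mean tail was 56.7, 64.2 and 50.5 nt in WT (29, 29 and 18 tags) and 62.2, 72.7 and 49.2 nt in DKO (34, 41 and 5 tags). The DKO value was above the WT value in numbers 1 and 2, by 5.49 and 8.50 nt, and below it in number 3, where DKO has 5 tags. The test over 76 identifiers gave a log2 change of 0.09 (SE 0.18, limma adjusted p = 0.83), and without DKO replicate 3 it was 0.24 (SE 0.17, limma adjusted p = 0.65, 68 identifiers, 0% called). Without DKO replicate 2 the value was -0.04, so here too single libraries set the direction. The genotypes did not separate for either Eef2 or Rack1, whereas 13.2% of the 76 identifiers had all DKO libraries above all WT libraries.

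Short Rack1 tails were counted as well. They numbered 3, 2 and 2 in WT and 0, 2 and 0 in DKO. On the log2 odds scale the share under 30 nt differed by -1.48 (SE 0.82, limma adjusted p = 0.40, 0% of 76 identifiers called; at the minimum of 10, where no member was tested, 2.27% of 44 were). Of those 76 identifiers 13.2% had a higher fitted share in DKO, so that a lower one was the usual direction, and Eef2, at 0.85 (SE 0.86, limma adjusted p = 0.60), went the other way on 3 short tails in all.

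Both members tested for tail length at the minimum of 5 had a higher fitted value in DKO, as did 94.7% of the 76 identifiers. That balance depended on WT replicate 3. At the minimum of 10, where no member was tested, 42 of 44 identifiers were higher, but 26 of 46 without WT replicate 3. Once each library was centred on its median, 15 of 44 were higher. Centring removes any shift that the identifiers share, so that count cannot show where such a shift came from. The median log2 change of Eef2 and Rack1, 0.13, stood beside 0.14 over all 76. In numbers 1 and 2 the fitted value was higher for Rack1 and Eef1g and lower for Eef2, beside 69.7% higher among 122 identifiers. With equal weight for the 7 members that had a tailed tag in every library (Eef1a1, Eef2, Eef1b2, Eef1g, Npm1, Rack1 and Pabpc1), the mean tail was 52.5, 65.9 and 48.7 nt in WT and, in DKO, 59.03, 69.6 and 56.3 nt. Between libraries of equal number DKO exceeded WT by 6.55, 3.69 and 7.54 nt, or 5.93 nt ± 2.00 (SD of the differences, n = 3), while the SD between libraries was 9.04 nt for WT and 7.04 nt for DKO. This gives members with as few as 1 tag in a library the same weight as Eef2. With the tags of all members pooled, the differences were -2.13, 0.32 and 8.72 nt, with a mean of 2.30 nt ± 5.69 (SD, n = 3). Leaving out a single library moved the equal-weight difference from 1.94 nt (without DKO replicate 2) to 11.04 nt (without WT replicate 2), and it was 2.44 nt without WT replicate 3.

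The other members had few tags or none. Pabpc1 (ENSMUSG00000022283.14, chr15:36595658-36609581) encodes the cytoplasmic poly(A)-binding protein itself. Its tails measured 5, 23 and 39 nt in WT replicate 1, 46 and 69 nt in WT replicate 3, and 28 and 126 nt in DKO replicate 3. Those of WT replicate 2 ran from 19 to 171 nt (6 tags), of DKO replicate 1 from 7 to 170 nt (7 tags) and of DKO replicate 2 from 46 to 153 nt (5 tags). Pabpc1 thus had both very short and very long tails, with 6 of 25 under 30 nt (24%, 95% exact interval 9.36 to 45.1%), beside 3 of 229 for Eef2.

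Npm1 (ENSMUSG00000057113.13, chr11:33152498-33164142) encodes nucleophosmin, a nucleolar chaperone of ribosome assembly. It had 8 tailed tags in WT and 7 in DKO, between 30 and 136 nt, so that 0 of 15 were under 30 nt, and 3 further Npm1 tags had no tail. Tpt1 (ENSMUSG00000060126.14, chr14:75845256-75848303), which encodes the translationally controlled tumour protein, had 4, 1 and 1 tags (WT) and 1, 2 and 0 (DKO). The tails of Tpt1 measured 19, 46, 145 and 172 nt in WT replicate 1, 81 and 77 nt in WT replicates 2 and 3, 75 nt in DKO replicate 1, and 61 and 178 nt in DKO replicate 2.

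Naca (ENSMUSG00000061315.13, chr10:128035346-128048637) encodes a subunit of the complex that shields nascent chains at the ribosome. It had a single tag, of 79 nt, in DKO replicate 2. Fau (chr19:6057947-6059524), whose product is a fusion of a ubiquitin-like protein with a protein of the small subunit, had 0 linked tags in all 6 libraries. A count of 0 allows up to 1.25 tags per 10000 in the deepest library (DKO replicate 2) and 7.61 in the shallowest (DKO replicate 3), from counting error alone. These limits do not cover tags that were not linked to a gene. Only 19.0% (WT replicate 1) to 28.3% (DKO replicate 2) of mapped tags were linked to an identifier. Whether tags of the members with low counts were lost at that step was not tested.

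**Figure D2:**
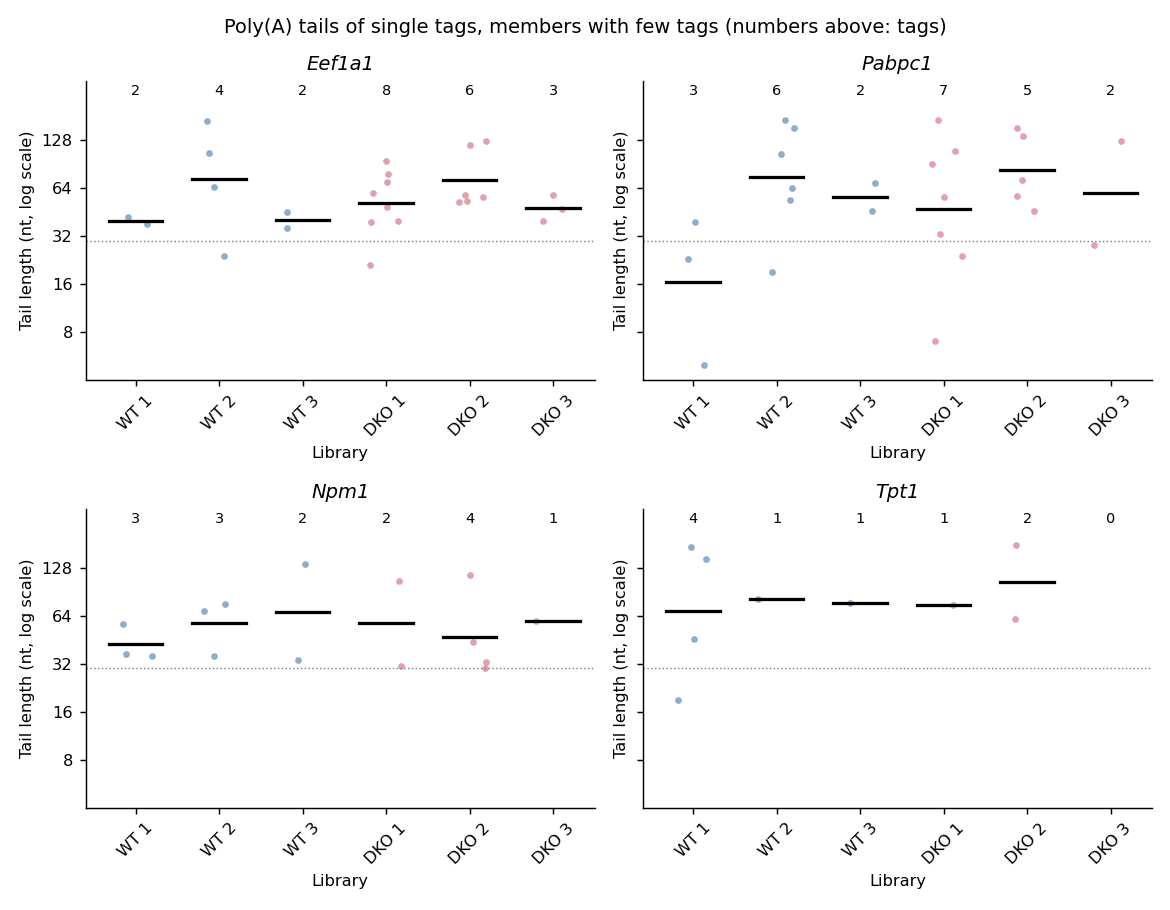
Tail length (nt, log axis) of every tailed tag of Eef1a1, Pabpc1, Npm1 and Tpt1 in each library, drawn as in the plot of Eef2 and Rack1, with WT in blue and DKO in red, the geometric mean as a black bar and 30 nt as a dotted line. With 0 to 8 tags per library the means move with single tags, and Pabpc1 has tails from 5 to 171 nt.

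The abundance of the members was compared as tailed tags per 10000 tailed, gene-linked tags. In bulk samples fewer transcripts per cell and fewer cells with the transcript cannot be told apart. The count filter was passed by 4 members, Eef2, Rack1, Eef1b2 and Eef1g. In edgeR's quasi-likelihood test 0% of 170 identifiers passed the adjusted threshold of 0.05. Before adjustment 13 identifiers had a p below 0.05, and DESeq2 called 0, with 8 before adjustment. Of the 4 members 1 had a higher and 3 a lower fitted value in DKO (45.9% of all 170 were higher). Their median log2 change was -0.66 beside -0.05 over all identifiers.

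The WT libraries had 40.1, 46.5 and 9.75 Eef2 tags per 10000, and the DKO libraries 27.6, 15.8 and 15.2. WT replicates 1 and 2 exceeded every DKO library, and WT replicate 3 lay below every DKO library. Over all libraries the log2 change was -0.76 (SE 0.51, edgeR adjusted p = 0.60). Within numbers 1 and 2 Eef2 was lower in DKO, with a log2 change of -1.17 (SE 0.32, edgeR adjusted p = 0.0041), where 12.4% of 241 identifiers were called (9.54% lower and 2.90% higher). Without WT replicate 3 alone the change was -1.27 (SE 0.41, edgeR adjusted p = 0.076), where 3.32% of 241 identifiers were called. The call thus held only where both libraries numbered 3 were left out, which leaves 2 libraries per genotype.

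In WT Eef1g had 10.03, 10.5 and 9.75 tags per 10000, and in DKO 4.84, 6.24 and 5.07. Each DKO library lay below each WT library, with means of 10.1 ± 0.399 (SD, n = 3) and 5.38 ± 0.754 (SD, n = 3). The log2 change of -0.95 (SE 0.46) missed the threshold (edgeR adjusted p = 0.46), and the counts behind it are 17, 12 and 7 tags against 10, 15 and 2. Within numbers 1 and 2 it was -1.04 (SE 0.44, edgeR adjusted p = 0.092).

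For Rack1 the values were 17.1, 25.5 and 25.1 tags per 10000 (WT), then 16.4, 17.1 and 12.7 (DKO). The genotypes also did not overlap here, but WT replicate 1 and DKO replicate 2 were nearly equal (29 tags of 16953 and 41 of 24024). The log2 change was -0.55 (SE 0.44, edgeR adjusted p = 0.65). No overlap with lower values in DKO was seen for 2 of the 4 members, and for 7.06% of the 170 identifiers tested (11.2% in the other direction).

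Eef1b2 was the member with a higher fitted value. Its values were 4.72, 14.9 and 6.97 tags per 10000 (WT) beside 17.9, 14.6 and 7.61 (DKO). The genotypes overlapped, with WT replicate 2 above DKO replicates 2 and 3, and the log2 change was 0.65 (SE 0.52, edgeR adjusted p = 0.65). When libraries of equal number were paired, edgeR called 3 identifiers (1.76% of 170, with 0.588% higher and 1.18% lower in DKO), and 0 of the 4 members. Of the thinly covered members, Tpt1 did not overlap between genotypes either (0.878 to 2.36 per 10000 in WT, 0 to 0.833 in DKO), on 6 and 3 tags. The value of 0 in DKO replicate 3 allows up to 7.61 per 10000, above each WT value, and that library has 1 Tpt1 tag without a tail, so no difference was detectable. Eef1a1 (1.18 to 3.51 per 10000 in WT, 2.50 to 7.61 in DKO), Pabpc1 (1.77 to 5.27 and 2.08 to 5.07) and Npm1 (1.77 to 2.79 and 0.967 to 2.54) overlapped.

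**Figure D3:**
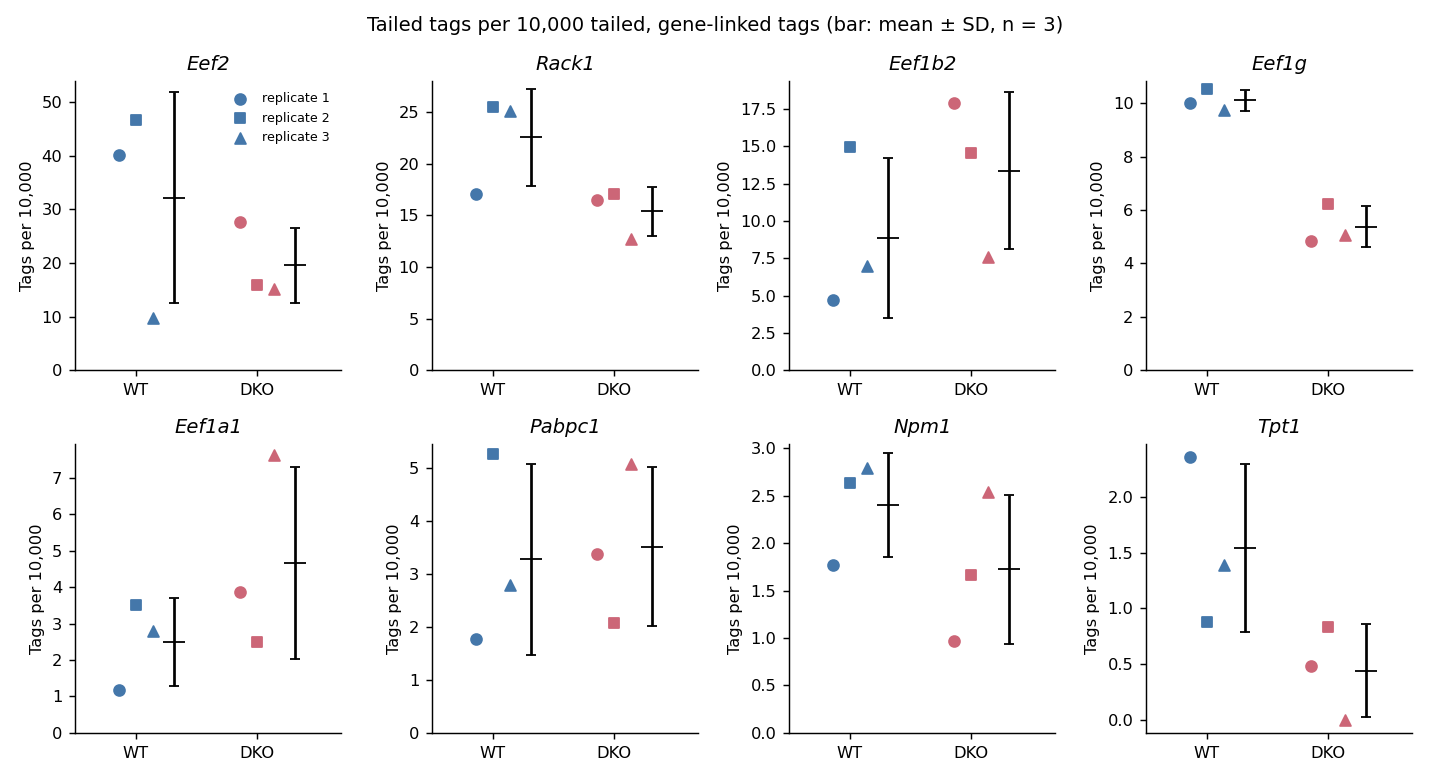
Tailed tags per 10000 tailed, gene-linked tags (linear axes) for 8 members, with a symbol for each replicate number, WT in blue and DKO in red, and the mean ± SD (n = 3) in black. The WT libraries of Eef1g sit between 9.75 and 10.5 and its DKO libraries between 4.84 and 6.24, whereas WT replicate 3 of Eef2 lies below all DKO libraries.

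The members were set beside all other gene-linked tags of the same library. Tails under 30 nt made up 5.22%, 5.6% and 9.09% of member tags in WT and 5.13%, 3.40% and 9.09% in DKO. Among the other tags they made up 9.80%, 10.9% and 25.4% in WT and 8.74%, 7.82% and 15.5% in DKO. The share was lower for the members in 6 of 6 libraries. Over identifiers with at least 10 tags in a library, the median share under 30 nt was 6.67%, 6.45% and 11.8% in WT and 4.55%, 2.94% and 4.35% in DKO. With equal weight for the 7 members with tags in every library, their mean share was 11.2%, 9.81% and 6.49% in WT and 7.66%, 1.89% and 11.9% in DKO. It was below the median identifier in 2 of 6 libraries (WT replicate 3 and DKO replicate 2), so whether the members were lower depended on how tags and identifiers were weighted, and Eef2 holds 229 of the 628 pooled tags. None of these differences was tested.

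Tags without a tail were also rarer among the members' pooled tags. They made up 1.47% and 0.794% of member tags in WT replicates 1 and 2, 0 of 44 in WT replicate 3 (a share of up to 6.82%), and 1.27%, 2.65% and 12% (3 of 25) in DKO. Among the other linked tags such tags made up 7.32%, 8.12% and 28.1% (WT) and 7.05%, 6.01% and 24.2% (DKO). The member share was below that of the other tags in 6 of 6 libraries, and it rested on 12 of 640 member tags. Members differed, from 1 of 230 Eef2 tags and 0 of 25 for each of Eef1a1 and Pabpc1 to 1 of 10 for Tpt1 and 3 of 18 for Npm1. Eef2 weighs most in the pooled share, and no comparison with equal weight per identifier was made for tags without a tail. The mean tail of the member tags was 62.5, 69.3 and 47.4 nt in WT (other tags 62.4, 58.7 and 38.2 nt). In DKO it was 60.3, 69.6 and 56.1 nt (other tags 62.0, 66.6 and 49.2 nt), and members were thus higher in 5 of 6 libraries. By the median tag they were lower in 3 of 6 libraries (61 and 64 nt in WT replicate 1, 61 and 66 nt in DKO replicate 1, 55 and 56 nt in DKO replicate 3). The median identifier with at least 10 tags had a mean tail of 66.9, 64.2 and 46.3 nt in WT and, in DKO, of 66.7, 72.3 and 60.1 nt. The members lay below it in WT replicate 1 and in all 3 DKO libraries. Member tails were thus not longer than others by every measure.

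An added U was found on 28 of 628 member tails, 8 of 303 in WT and 20 of 325 in DKO. Most of these 28 had a deposited string that did not match the called tail length. Examples are a Rack1 tail of 58 nt in WT replicate 1 and an Eef2 tail of 33 nt in DKO replicate 2. The shares were not computed without such tags. Tails with a U made up 2.24%, 2.40% and 4.55% in WT and 5.77%, 6.80% and 4.55% in DKO. DKO replicates 1 and 2 were thus the highest and the libraries numbered 3 were equal. The 95% exact intervals ran from 0.464 to 6.40% in WT replicate 1 and from 2.67 to 10.7% in DKO replicate 1, and overlapped. Among the other tags a U was on 2.52%, 2.42% and 3.60% (WT) and 2.37%, 2.27% and 2.73% (DKO). In DKO replicates 1 and 2 this lay below the members' intervals (lower bounds 2.67% and 3.31%), and in the other 4 libraries within them.

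By member, a U was on 3 of 128 Eef2 tails in WT and 5 of 101 in DKO, on 2 of 76 and 4 of 80 Rack1 tails, and on 1 of 36 and 3 of 27 Eef1g tails. For Eef1b2 it was on 0 of 30 tails in WT, which allows a share of up to 10%, and on 5 of 75 in DKO. The counts were too small to separate the genotypes within any of these 4 genes. How many of the other identifiers had a U on more tails in DKO was not computed. Among the thinly covered members a U was on 1 of 8 Eef1a1 tails in WT and 2 of 17 in DKO, on 1 of 11 and 0 of 14 Pabpc1 tails, and on 0 of 8 and 1 of 7 Npm1 tails. A G was found on 1 Eef2 and 1 Eef1b2 tail and a C on 1 Rack1 tail.

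**Figure D4:**
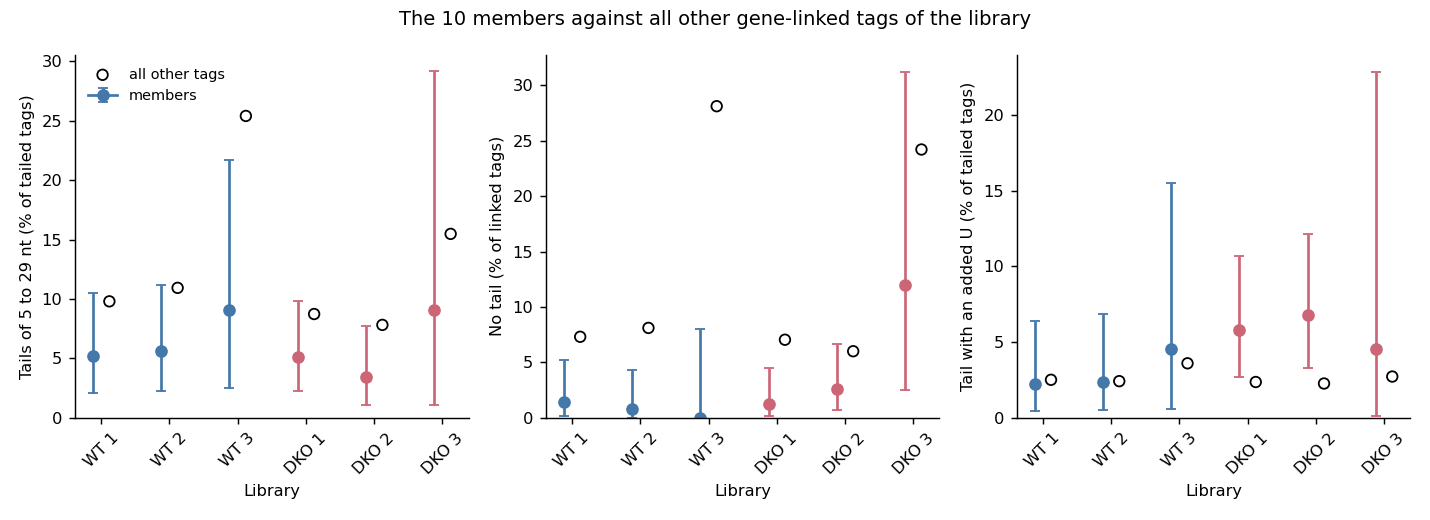
Share of tails of 5 to 29 nt, of tags under 5 nt and of tails with an added U (percent, linear axes from 0) in each library, for the members (filled, with 95% exact intervals that cover counting error only) and for all other gene-linked tags (open circles). The members lie below the other tags in all 6 libraries in the first and second panel. In the first panel the other tags lie outside the members' intervals only in WT replicate 3 and DKO replicate 2. DKO replicates 1 and 2 are the highest in the third, at 5.77% and 6.80%.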

How the data were processed

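For each library the authors deposited a table of mapped tags with the number of reads (a whole-number count) and the tail length in nt, a table linking tags to versioned gene identifiers with the count of identifiers per tag, and a table per identifier. In the latter, per the file headers, stand tag counts and a mean tail length in nt (a signal column as deposited). GSNAP, bedtools, mm10 and GRCm38 are named in the submitters' processing notes. The sources used here do not state the tail caller or annotation release.

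Tags were joined to links, and tail length after mapping was used (5 nt or more counted as tailed, 0 and -1, whose meaning the sources used here do not state, as no tail). For all listed members tag counts equalled the deposited ones and geometric means lay within 1e-06 nt of them. Symbols are those of the selection rule. 0 of 49997 rows of the reference table (GRCm38.p6) carry an Ensembl identifier, so the lists of other translation factors and of cell type markers were not used. Positions and promoters are RefSeq's, by symbol.

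Tail length (log2 geometric mean) and the share under 30 nt (empirical logit, adding 0.5 to both classes) were fitted with limma 3.58.1 over identifiers that reached 10 tailed tags in all 6 libraries (44, with 0 members), and tag counts with edgeR 4.0.16 (filterByExpr, TMM, quasi-likelihood, 170 identifiers), with Benjamini-Hochberg adjustment over all identifiers and a threshold of 0.05. DESeq2 1.42.0 was an alternative. Software was R 4.3.3, Python 3.11.15, SciPy 1.17.1 and pandas 2.3.3. The fits were run on simulated data whose set changes were larger than the members' fitted changes. Simulated tails varied by tag sampling alone. That run thus did not show whether changes of the members' size would be found. Deviations from the genotype mean correlated between same-numbered libraries at 0.16, 0.29 and 0.41 for tail length (across 44 identifiers) and 0.14, 0.21 and 0.38 for tag counts. Libraries of different number were not compared, so a pairing was not shown. The replicate block treats equal numbers as pairs and was run as an alternative to the main fits, which used genotype alone. Intervals are exact (Clopper-Pearson) and limits for a count of 0 are 3 counts of the total; both cover counting error only, and tags may share PCR origins. All 10 members are named. The members, lists and settings were chosen with earlier results of these data known. Pooled measures of the members were not tested.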

Additional observations from a re-analysis of the deposited data

How the results depend on the processing

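Depth was the main limit, since 7 of 10 members had a tailed tag in every library and 0 had 10, so the equal-weight values could not be computed at minimums of 10 or 20. The count of identifiers with a changed tail length was 0 in every alternative run, the replicate block included (smallest limma adjusted p 0.13). The count with a changed tag count moved from 0 to 3 with the replicate block, to 30 in numbers 1 and 2 only and to 8 without WT replicate 3 (0 to 8 when single libraries were left out; the cause was not tested). Among members, Eef2 alone passed, in numbers 1 and 2 only. The log2 count changes of Eef2, Eef1g, Rack1 and Eef1b2 kept their sign in 13 of 13 alternatives each.

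The count with a changed share under 30 nt was 1, not a member, and 1 with the replicate block. It was 0 at minimums of 5 and 20, under 20 nt and in numbers 1 and 2 only, and 0 to 1 when single libraries were left out. The replicate block changed no member's call. The equal-weight tail difference was 1.94 to 11.04 nt, and the short-tail difference -5.73 to 0.61 percentage points around -2.02, with both signs. The difference in tags with a U was 2.64 percentage points, and 3.97 in numbers 1 and 2 only. With tags pooled over members, a choice made after seeing the data as were the tail before mapping and the minimum of 5 combined with the block, the tail difference stayed within the spread between libraries.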
